A study of Mus musculus with 6 samples.

Results

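The transcripts described here are those of 8 chemokines ascribed to group 2 innate lymphoid cells (ILC2s): Ccl1, Ccl3, Ccl4, Ccl5, Ccl17, Ccl22, Cxcl2 and Cxcl3. They were chosen by name, with earlier results of these data known. Of the 8, 7 were found among the 18057 genes of the count table, while Ccl1 was not analysed here. RNA came from ILC2s isolated from mouse lung after 3 intranasal injections of 1 µg IL-33. The cells were kept for 24 h in IL-2 (10 ng/mL) plus IL-7 (10 ng/mL). The Piezo1_KO group had 3 libraries of genotype Il7rcrePiezo1flx, in which Cre from the Il7r locus acts on floxed Piezo1, the gene of a mechanically gated cation channel. The WT group had 3 libraries of genotype Il7rcre, so by their genotype labels both groups carry the driver, although the titles of the controls read WT. The genotypes as written do not give the number of Cre alleles in either group. Il7r is active in developing lymphocytes as well as in ILC2s, so the deletion is not limited to lung ILC2s. The labels state neither the age of the mice nor whether replicates were separate animals, so the error behind each p-value is that between libraries, part of which may be technical.

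Chemokines are small secreted proteins that steer leukocytes by binding G protein-coupled receptors on the arriving cell. CXCL2 and CXCL3 carry a Glu-Leu-Arg motif and attract neutrophils through CXCR2. CCL3, CCL4 and CCL5 recruit monocytes, T cells and eosinophils, while CCL17 and CCL22 call in CCR4-bearing type 2 helper and regulatory T cells. In the airway these signals shape which cells join the eosinophils that ILC2-derived IL-5 sustains.

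Cxcl3 carried most of the chemokine signal and was the chemokine whose change passed the test, so its coding sequence is shown beside that of its close relative Cxcl2. Cxcl3 lies at chr5:90786103-90789600 and Cxcl2 at chr5:90903871-90905938, both on the plus strand of GRCm38 and 114.3 kb apart. The 2 coding sequences, from GENCODE release M21 without the stop codon, have 300 bases each and differ at the 31 bases printed in capitals.
Cxcl3: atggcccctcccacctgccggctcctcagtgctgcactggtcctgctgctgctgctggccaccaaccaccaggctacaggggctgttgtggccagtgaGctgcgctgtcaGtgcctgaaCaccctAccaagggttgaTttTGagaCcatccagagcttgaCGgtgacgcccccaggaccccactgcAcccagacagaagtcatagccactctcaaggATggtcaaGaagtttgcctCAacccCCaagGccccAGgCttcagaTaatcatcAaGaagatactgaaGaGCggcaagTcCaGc
Cxcl2: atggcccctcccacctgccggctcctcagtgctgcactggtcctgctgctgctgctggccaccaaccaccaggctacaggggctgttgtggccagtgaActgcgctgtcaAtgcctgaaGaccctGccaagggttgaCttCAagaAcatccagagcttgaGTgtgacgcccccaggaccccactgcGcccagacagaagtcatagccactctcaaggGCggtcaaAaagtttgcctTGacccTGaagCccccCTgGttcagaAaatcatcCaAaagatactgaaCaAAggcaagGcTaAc
Identity was 89.7%, and the first 98 bases are the same in both. Over the longest coding transcripts, 6.31% of the 50-base windows of Cxcl3 occur exactly in a Cxcl2 coding transcript, and 3.37% of those of Cxcl2 occur in Cxcl3. By contrast, the coding sequences of the neighbours Ccl3 and Ccl4 were 69.6% identical with no shared run over 9 bases, and those of Ccl17 and Ccl22 were 61.9% identical.

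The promoters of Cxcl3 and Cxcl2 are shown because these genes are the CXCR2 ligands among the members. Cxcl3 passed the test as lower in Piezo1_KO and Cxcl2 did not (adjusted p = 0.125, edgeR). The sequences are the 250 bases before the RefSeq start on GRCm38.p6, chr5:90785851-90786100 for Cxcl3 and chr5:90903649-90903898 for Cxcl2, plus strand. Capitals mark matches on either strand to the kappaB consensus bound by NF-kB, which read GGGAATTTCC on the plus strand in both genes, and to the motif TATAAA on the gene strand.
Cxcl3: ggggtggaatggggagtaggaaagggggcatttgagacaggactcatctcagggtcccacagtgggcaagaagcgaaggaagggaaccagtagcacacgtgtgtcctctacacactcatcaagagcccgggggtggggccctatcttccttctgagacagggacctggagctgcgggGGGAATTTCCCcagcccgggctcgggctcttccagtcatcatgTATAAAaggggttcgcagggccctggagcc
Cxcl2: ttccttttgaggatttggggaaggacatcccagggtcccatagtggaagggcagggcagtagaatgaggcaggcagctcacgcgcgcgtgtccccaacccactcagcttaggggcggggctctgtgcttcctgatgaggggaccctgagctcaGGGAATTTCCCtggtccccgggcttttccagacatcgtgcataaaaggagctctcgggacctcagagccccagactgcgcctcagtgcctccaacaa
Matches to the kappaB consensus on opposite strands overlap here, from 73 to 63 bases before the RefSeq start in Cxcl3 and from 97 to 87 bases before it in Cxcl2. For Cxcl2 the GENCODE gene start given above, 90903871, lies inside this window. Distances from that start would be shorter, so the positions in the 2 genes are not compared. An exact match to TATAAA was found in Cxcl3, from 30 to 25 bases before the RefSeq start. Near matches, such as cataaa in the Cxcl2 window, were not counted. Of the 6 chemokines with a promoter entry, 3 held a kappaB match (Ccl1, Cxcl2 and Cxcl3), against 7.25% of 32851 promoter windows of this length. For TATAAA the count was 1 of 6, against 7.59% of windows, and for the AP-1 motif TGANTCA on either strand 0 of 6, against 6.75%. A match describes letters in these windows only.

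Libraries held 23549806 to 29733368 estimated counts in Piezo1_KO and 13059042 to 33459908 in WT. Piezo1 itself was at 109 to 150 CPM (counts scaled to a common library size with TMM factors) in Piezo1_KO and 160 to 278 CPM in WT, and the difference of −0.85 ± 0.21 (SE) in log2 missed the threshold of 0.05 (adjusted p = 0.112, edgeR). No label says which exons are floxed, and the count covers the whole gene. Il7r, the locus of the driver, was at 30.5 to 34.3 CPM in Piezo1_KO and 58.3 to 74.8 CPM in WT. Its log2 fold change was −1.03 ± 0.12 (SE, adjusted p = 0.00722, edgeR), and it passed in 9 of the 12 alternative fits listed under processing. The part of the driver in this difference was not tested. All 15 ILC2 markers were detected. Their summed level was 14321 to 15369 CPM in Piezo1_KO and 12711 to 13479 CPM in WT. Il5 gave 4578 to 5483 CPM of it in Piezo1_KO and 3986 to 4082 CPM in WT. Il2ra gave 4243 to 4401 and 3143 to 3842 CPM, so these genes made up most of the sum. By edgeR 1 marker passed as higher in Piezo1_KO (Il17rb) and 2 as lower (Il7r and Icos), beside 1% and 0.509% of all tested genes. Il17rb and Icos each passed in 7 of the 12 alternative fits. They did not pass with the replicate block or without WT replicate 1 or any 1 Piezo1_KO library. Called markers numbered 6 in DESeq2 and in limma-voom, where 593 and 439 of 14149 genes were called. They numbered 0 without Piezo1_KO replicate 1 or 2 or WT replicate 1. Of the 15, 12 had an unadjusted p under 0.05, in both directions, beside 13.2% of all tested genes.

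Cxcl3 fell in Piezo1_KO ILC2s. Its level was 46.2, 42.1 and 49.8 CPM in Piezo1_KO replicates 1, 2 and 3, against 116, 101 and 131 CPM in WT replicates 1, 2 and 3. Every Piezo1_KO library lay below every WT library. The mean was 46.1 ± 3.83 CPM in Piezo1_KO and 116 ± 14.9 CPM in WT (SD, n = 3 each). The difference was a log2 fold change of −1.33 ± 0.12 (SE), or 2.52-fold lower, and it passed the threshold of 0.05 (adjusted p = 0.00242, quasi-likelihood test of edgeR, Benjamini-Hochberg over 14149 genes). It also passed in each of 12 alternative fits, where the adjusted p lay between 7.49e-18 and 0.0416 and the log2 fold change between −1.44 and −1.24. RNA was taken from bulk cells, so fewer cells with the transcript and less transcript per cell cannot be told apart.

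Cxcl2, the other neutrophil-attracting member, had a change of like size at a far lower level. Cxcl2 counts were 19, 26 and 12 in Piezo1_KO replicates 1, 2 and 3 and 50, 56 and 28 in WT replicates 1, 2 and 3, equal to 0.803, 0.898 and 0.513 CPM in Piezo1_KO and 2.52, 1.67 and 2.10 CPM in WT. The groups did not overlap. The mean was 0.738 ± 0.201 CPM in Piezo1_KO and 2.10 ± 0.421 CPM in WT (SD, n = 3 each), a log2 fold change of −1.49 ± 0.38 (SE). This missed the threshold (adjusted p = 0.125, edgeR), and of the 12 alternative fits 1 passed, limma-voom with sample quality weights (adjusted p = 0.0388), within a range of 0.0388 to 0.391.

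The ratio of Cxcl3 to Cxcl2 counts within a library does not depend on scaling between libraries. It was 57.6, 46.9 and 97.2 in Piezo1_KO replicates 1, 2 and 3, and 46.1, 60.4 and 62.4 in WT replicates 1, 2 and 3, so the groups overlapped. The difference of the mean log2 ratio, Piezo1_KO minus WT, was 0.20 (p = 0.8, exact permutation test over libraries, two-sided, smallest possible p 0.1), and its sign turned without Piezo1_KO replicate 3 (−0.10). Both genes share coding sequence, as printed above, and Cxcl3 counts were at least 46.1 times those of Cxcl2 in every library. How much of the Cxcl2 count comes from Cxcl3 reads was not tested. The deposited estimates of both genes lay within 0.05 counts of a whole number, and those of the other 5 members were whole.

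**Figure D1:**
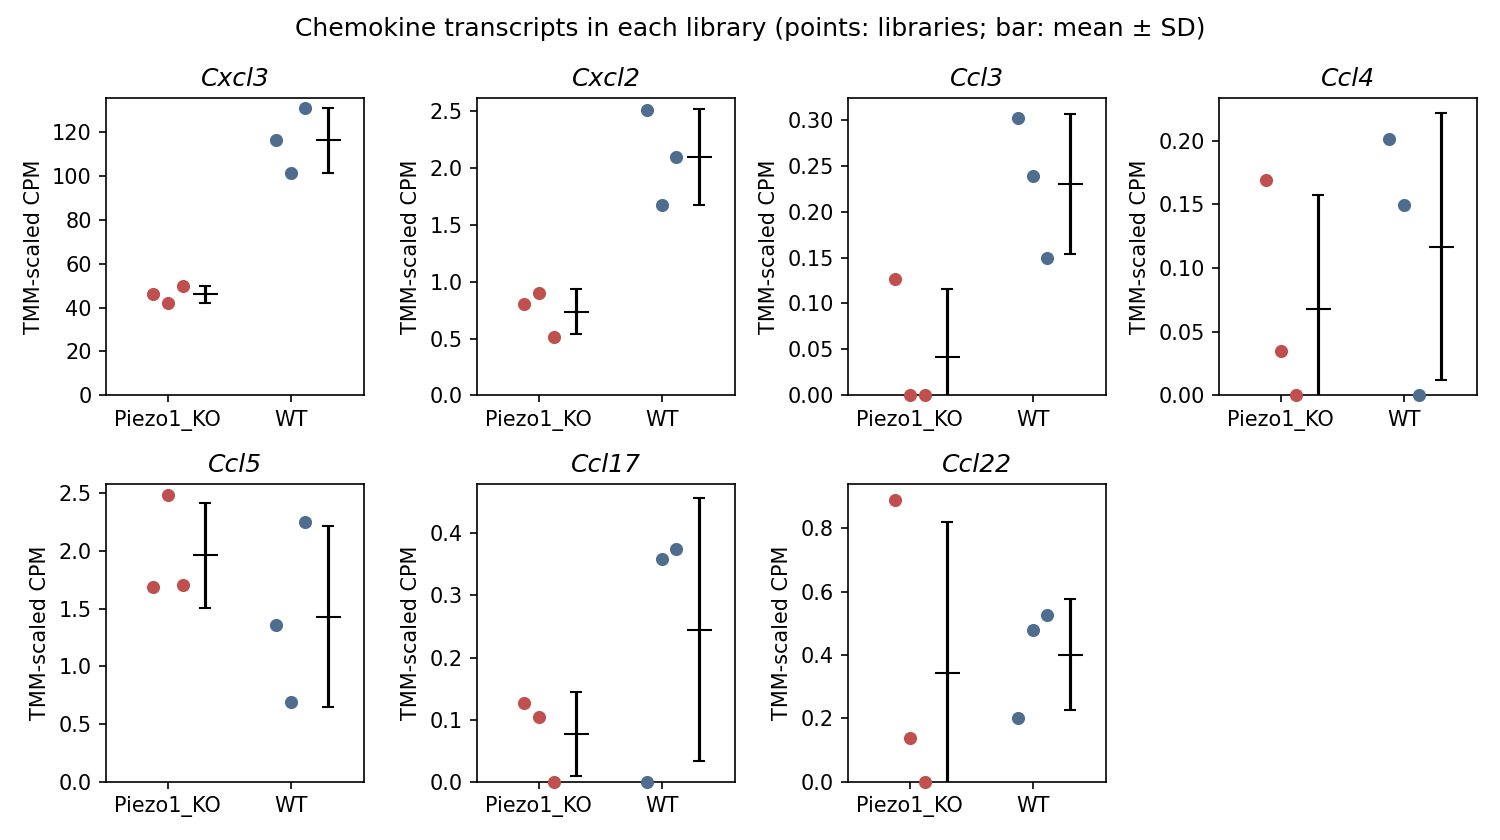
Each panel plots 1 chemokine, with TMM-scaled CPM on the y axis, each from 0 on its own scale, and the 3 Piezo1_KO libraries left of the 3 WT libraries. Points are libraries and black bars are the mean ± SD, drawn down to 0 at most. Cxcl3 sits at 42.1 to 49.8 CPM in Piezo1_KO and at 101 to 131 CPM in WT, while no other panel reaches 3 CPM.

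Among the CC chemokines that recruit monocytes and T cells, Ccl5 (RANTES) was detected in every library but was not shown to differ. Ccl5 was at 1.69, 2.49 and 1.71 CPM in Piezo1_KO replicates 1, 2 and 3, against 1.36, 0.687 and 2.25 CPM in WT replicates 1, 2 and 3. The groups overlapped, since WT replicate 3 lay above Piezo1_KO replicates 1 and 3. The log2 fold change was 0.50 ± 0.46 (SE, adjusted p = 0.711, edgeR), and no alternative fit passed (adjusted p from 0.270 to 0.970). It was 0.97 without WT replicate 3 and 0.13 without WT replicate 2.

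Ccl3 and Ccl4 (MIP-1alpha and MIP-1beta), which lie 13.2 kb apart on chromosome 11, were close to the detection limit and were left out by the filter on low counts. Ccl3 had 3, 0 and 0 counts in Piezo1_KO replicates 1, 2 and 3, against 6, 8 and 2 in WT replicates 1, 2 and 3. Scaled to depth, the highest Piezo1_KO library (0.127 CPM) lay below the lowest WT library (0.1499 CPM), each of these being 3 counts or fewer. Summed over the group, Ccl3 had 3 counts in Piezo1_KO and 16 in WT, a ratio of 0.165 with a 95% interval of 0.0307 to 0.575 that covers counting error only. Ccl4 had 4, 1 and 0 counts in Piezo1_KO and 4, 5 and 0 in WT, and its ratio of 0.487 had an interval of 0.128 to 1.62. Without a filter on low counts, the adjusted p was 0.514 for Ccl3 and 0.861 for Ccl4 (edgeR).

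The CCR4 ligands Ccl17 (TARC) and Ccl22 (MDC), 58.8 kb apart on chromosome 8, varied more between libraries of 1 group than between groups. Ccl17 had 3, 3 and 0 counts in Piezo1_KO replicates 1, 2 and 3, and 0, 12 and 5 in WT replicates 1, 2 and 3. It was left out by the filter, and without the filter its log2 fold change was −1.59 ± 1.25 (SE, adjusted p = 0.703, edgeR). Ccl22 had 21, 4 and 0 counts in Piezo1_KO replicates 1, 2 and 3, and 4, 16 and 7 in WT replicates 1, 2 and 3. Its log2 fold change was −0.24 ± 1.07 (SE, adjusted p = 0.958, edgeR), and it turned positive without Piezo1_KO replicate 2 (0.15) or 3 (0.33). A count of 3 corresponds to 0.104 to 0.128 CPM in Piezo1_KO libraries and 0.0896 to 0.225 CPM in WT libraries, so several of the Ccl3, Ccl4, Ccl17 and Ccl22 values lay at or below this level. For Ccl22 the ratio of summed counts, Piezo1_KO over WT, was 0.812 with a counting interval of 0.452 to 1.45, while single Piezo1_KO libraries ran from 0 to 21 counts.

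Of the 7 chemokines in the table, 4 were tested, 1 passed as lower (Cxcl3) and 0 as higher, where 0.509% of all tested genes passed as lower, 1% as higher and 1.51% in either direction. Of the tested members, 2 had groups that did not overlap and were lower in Piezo1_KO (Cxcl2 and Cxcl3), against 10.5% of all tested genes with no overlap and lower, 10.1% higher and 20.6% in either direction. The median log2 fold change of these 4 was −0.79, beside 0.018 over all tested genes, and 3 of the 4 were negative, as were 47% of all tested genes.

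**Figure D2:**
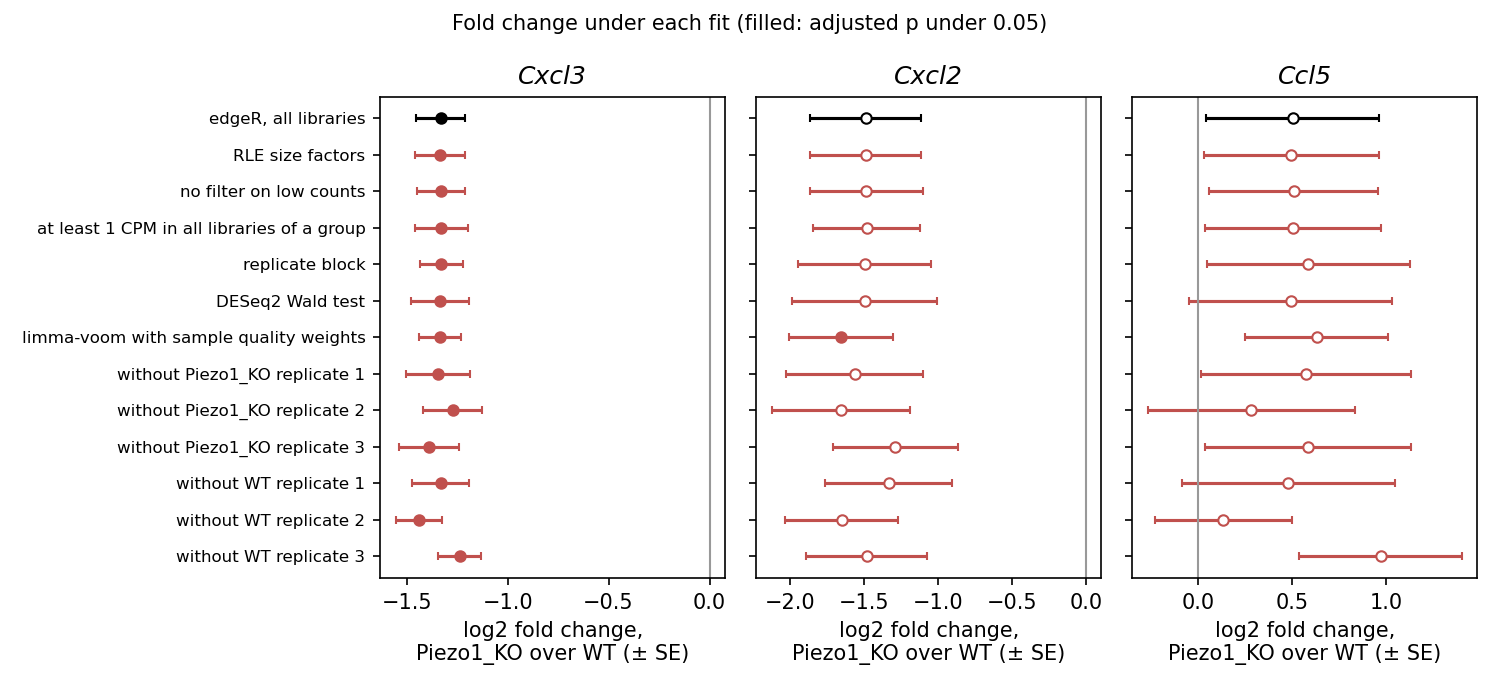
The log2 fold change of Cxcl3, Cxcl2 and Ccl5, Piezo1_KO over WT, is on the x axis with its SE for each fit listed down the page. Black is the edgeR fit on all libraries, red are the alternatives, and filled points have an adjusted p under 0.05. Cxcl3 is filled in every fit and lies between −1.44 and −1.24, Cxcl2 is filled in 1 fit, and Ccl5 in none.

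Levels of different genes were compared per kb of the longest coding transcript. Cxcl3 was at 45.3 ± 3.77 CPM per kb in Piezo1_KO and 114 ± 14.7 CPM per kb in WT (SD, n = 3 each), the highest of 20 chemokine genes measured in every library. It made up 76.0%, 72.7% and 79.6% of their summed CPM per kb in Piezo1_KO replicates 1, 2 and 3, and 88.6%, 87.0% and 87.7% in WT replicates 1, 2 and 3. Ccl5 followed among the members at 3.69 ± 0.855 CPM per kb in Piezo1_KO and 2.69 ± 1.47 in WT, and Cxcl2 came next at 0.397 ± 0.108 in Piezo1_KO and 1.13 ± 0.227 in WT. The libraries of Ccl5 and Cxcl2 did not overlap in Piezo1_KO (lowest Ccl5 value 3.18, highest Cxcl2 value 0.483) and overlapped in WT (lowest Ccl5 value 1.29, highest Cxcl2 value 1.35). In WT, the lowest Cxcl2 value (0.900) lay above the highest value of the next member, Ccl17 (0.729), whereas in Piezo1_KO the lowest Cxcl2 value (0.276) lay below the highest value of the next member, Ccl22 (0.401). Ccl3, Ccl4, Ccl17 and Ccl22 averaged 0.0552 to 0.154 CPM per kb in Piezo1_KO and 0.177 to 0.475 CPM per kb in WT, and their order within either group did not exceed the spread between libraries.

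The other chemokine genes were mostly low. Of 31 listed, 13 were in the table, 5 were tested and 0 passed, also with DESeq2, with limma-voom and at an unadjusted p under 0.05. The tested gene with the smallest p was Ccl6, a myeloid CC chemokine, at 0.702 ± 0.599 CPM in Piezo1_KO and 1.47 ± 0.884 CPM in WT (SD, n = 3 each, adjusted p = 0.594, edgeR). Cxcl5, another CXCR2 ligand, lies 24.5 kb from Cxcl3 and was chosen for mention after its values were seen. It was not tested, and had 5, 7 and 7 counts in Piezo1_KO replicates 1, 2 and 3, against 8, 38 and 10 in WT replicates 1, 2 and 3. Scaled to depth, this was 0.211 to 0.299 CPM in Piezo1_KO and 0.402 to 1.13 CPM in WT, with no overlap.

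The receptors of these chemokines were measured in the same cells. Of 8 listed, 5 were in the table, 4 were tested and 0 passed by edgeR, with 2 at an unadjusted p under 0.05 (Ccr1 and Ccr3), where 13.2% of all tested genes had such a p. DESeq2 and limma-voom each called 1 (Ccr1). All 4 had a positive log2 fold change, as had 53% of all tested genes. Ccr1, a receptor of CCL3 and CCL5, was at 97.1, 113 and 109 CPM in Piezo1_KO replicates 1, 2 and 3, against 69.2, 82.4 and 71.1 CPM in WT replicates 1, 2 and 3. The groups did not overlap, and the log2 fold change was 0.52 ± 0.11 (SE, adjusted p = 0.0668, edgeR, 0.00145 to 0.358 over 12 alternative fits, of which 4 passed). Ccr3, the eotaxin receptor that also binds CCL5, had a log2 fold change of 0.59 ± 0.25 (SE, adjusted p = 0.368, edgeR), also without overlap.

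Ccr4, the receptor of CCL17 and CCL22, was at 58.2 to 60.6 CPM in Piezo1_KO and 49.2 to 60.2 CPM in WT, and its groups overlapped (log2 fold change 0.12 ± 0.10, adjusted p = 0.685, edgeR). Ccr8, the receptor of CCL1, was at 136 to 145 CPM in Piezo1_KO and 106 to 136 CPM in WT, overlapping as well (0.18 ± 0.11, adjusted p = 0.541, edgeR). Per kb of transcript, Ccr8 was the highest of the 5 receptors, at 115 to 124 CPM per kb in Piezo1_KO and 90.5 to 116 CPM per kb in WT. Cxcr2, the receptor of CXCL2 and CXCL3, was the lowest at 0.0340 to 0.111 CPM per kb in Piezo1_KO and 0 to 0.215 CPM per kb in WT, with at most 13 counts in a library.

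Among transcription regulators known to act on chemokine genes (NF-kB subunits and inhibitors, NFAT, AP-1 and others), Nfkbiz fell. Nfkbiz encodes IkappaB-zeta, a nuclear partner of NF-kB. It was at 21.1, 19.3 and 22.5 CPM in Piezo1_KO replicates 1, 2 and 3, against 34.0, 43.2 and 33.8 CPM in WT replicates 1, 2 and 3, with no overlap. The log2 fold change was −0.82 ± 0.13 (SE, adjusted p = 0.0270, edgeR). It passed in 7 of 12 alternative fits and did not pass with the replicate number as a block (adjusted p = 0.150) or without Piezo1_KO replicate 1 (0.118), 2 (0.175) or 3 (0.0982) or WT replicate 1 (0.113). Of 27 tested genes in this list, 1 was lower, 0 were higher and 26 did not pass. Of all tested genes, 0.509% passed as lower and 1% as higher. In this list 9 of the 27 had an unadjusted p under 0.05, beside 13.2% of all tested genes. Of these 9, Junb was higher in Piezo1_KO and the others were lower. The median log2 fold change was −0.12 in this list and 0.018 over all tested genes, and 21 of the 27 were negative, beside 47% of all tested genes.

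Of 9 regulators of chemokine mRNA decay, including the tristetraprolin family and the endonuclease regnase-1 (Zc3h12a), 0 passed by edgeR, DESeq2 or limma-voom, and 1 had an unadjusted p under 0.05, a share below the 13.2% of all tested genes. The smallest p was that of Zfp36l1, which encodes an AU-rich element binding protein, at 23.0 ± 2.65 CPM in Piezo1_KO and 31.2 ± 1.20 CPM in WT (SD, n = 3 each, log2 fold change −0.44 ± 0.12, adjusted p = 0.141, edgeR).

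**Figure D3:**
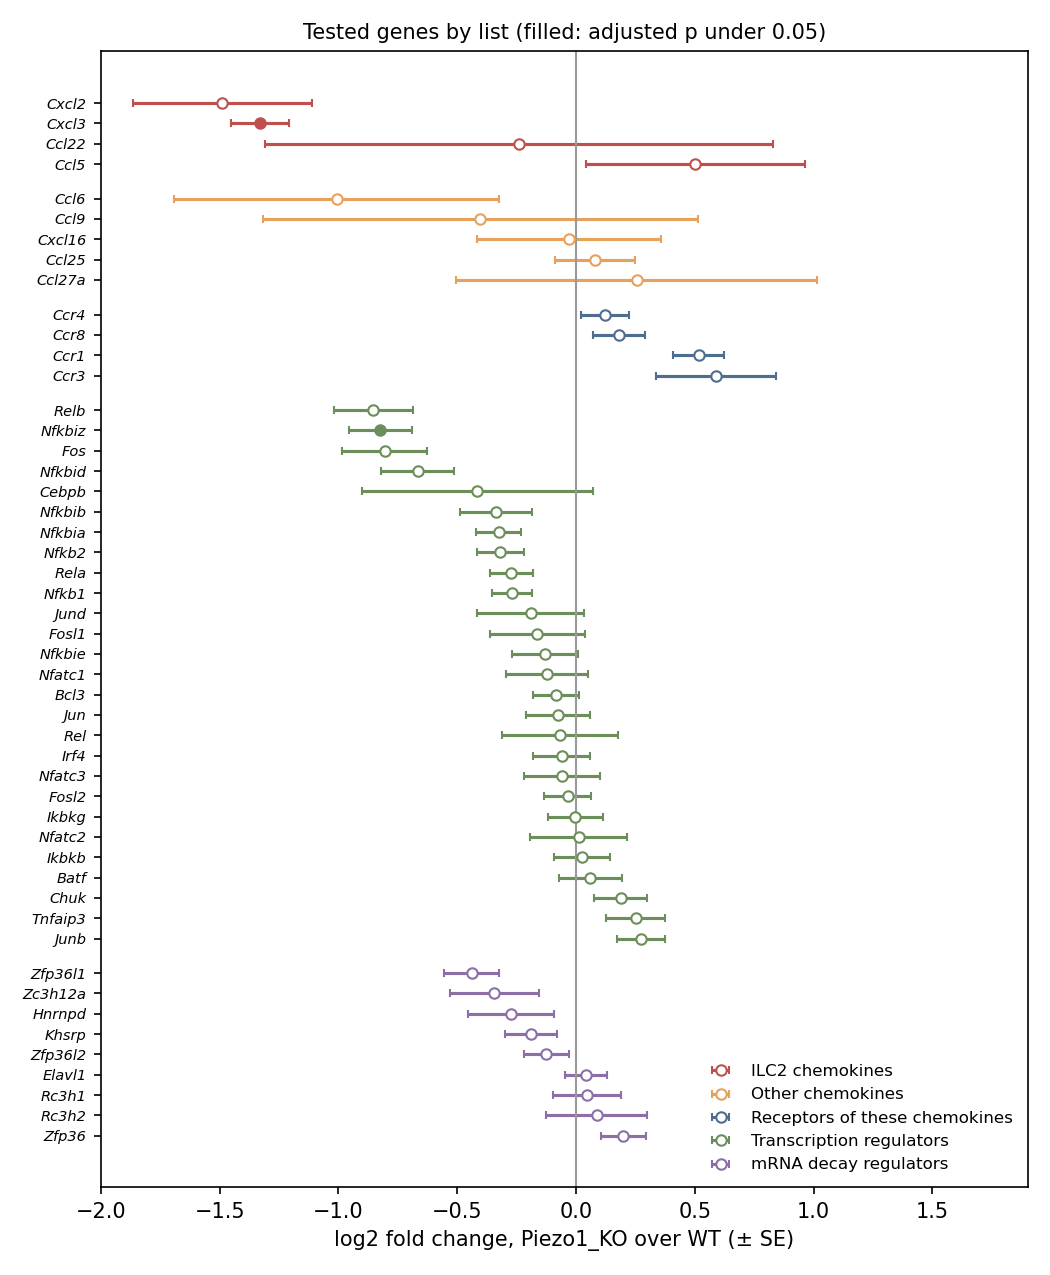
The x axis is the log2 fold change with its SE, Piezo1_KO over WT, for every tested gene of 5 lists, which run down the page. Filled points have an adjusted p under 0.05. Cxcl3 (−1.33) and Nfkbiz (−0.82) are the filled points, and all 4 receptors lie right of 0.

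The 3 genes whose pattern was most like that of Cxcl3 over the 6 libraries were Igfbp7, Anxa1 and Tgtp1. Likeness was the root mean square difference of log2 CPM, each gene centred on its own mean, among 8651 genes. The difference was 0.12 for Igfbp7, a secreted binding protein of insulin-like growth factors, 0.13 for Anxa1, which encodes annexin A1, a glucocorticoid-induced inhibitor of neutrophil recruitment, and 0.19 for Tgtp1, an interferon-inducible GTPase with a near-identical neighbour, Tgtp2. Anxa1 was at 21.7, 24.4 and 23.7 CPM in Piezo1_KO replicates 1, 2 and 3, against 55.3, 45.1 and 58.2 CPM in WT replicates 1, 2 and 3. Igfbp7 was at 7.08 to 8.11 CPM in Piezo1_KO and 13.6 to 22.1 CPM in WT. As with Cxcl3, both had their lowest WT value in replicate 2 and their highest in replicate 3. Tgtp1 had another order, at 32.7, 34.8 and 34.2 CPM in WT replicates 1, 2 and 3. These genes were found by their likeness, so neither their fold changes nor their order of replicates is separate evidence.

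**Figure D4:**
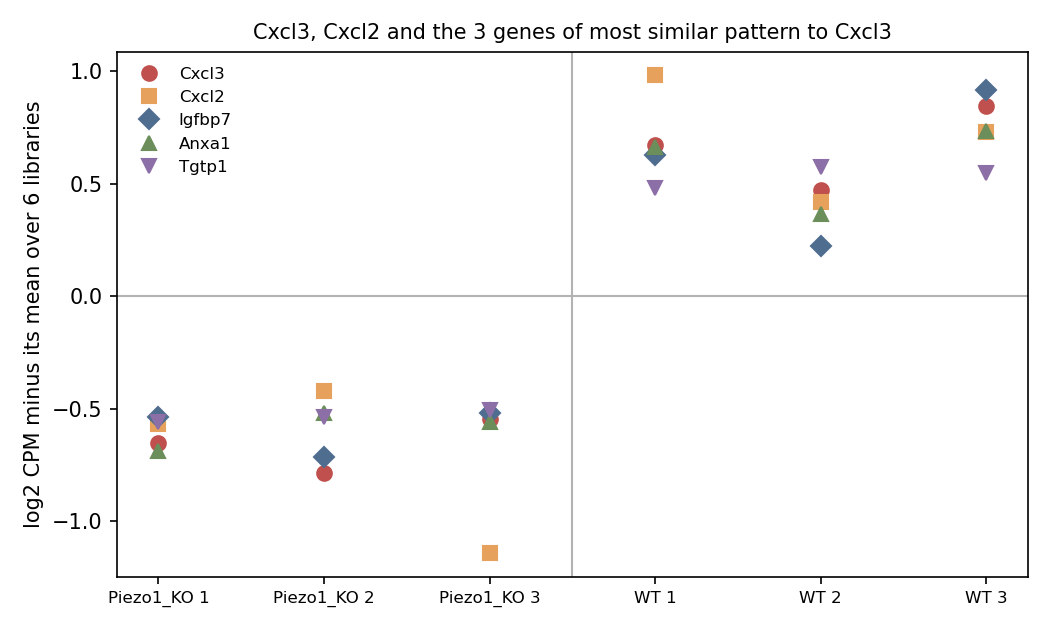
For each of the 6 libraries on the x axis, the y axis gives log2 CPM minus the gene's mean over all libraries. All 5 genes lie below 0 in the 3 Piezo1_KO libraries and above 0 in the 3 WT libraries. Cxcl2 is the most scattered of them.

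Neutrophils, mast cells and macrophages also make CXCR2 ligands and CC chemokines, so their markers are given beside these results. Of 10 mast cell and basophil markers, 7 were in the table and their summed level was 127 to 139 CPM in Piezo1_KO and 176 to 245 CPM in WT. Without Kit the sum of the other 6 was 4.31 to 5.77 CPM in Piezo1_KO and 12.6 to 17.4 CPM in WT. All 5 tested lay lower in Piezo1_KO without overlap, beside 10.5% of all tested genes, as did those in the table not tested. An unadjusted p under 0.05 was found for 4 of the 5, beside 13.2% of all tested genes. By edgeR 1 passed, beside 0.509% of all tested genes as lower, and DESeq2 and limma-voom each called 3 (Cma1, Tpsb2 and Kit). Cma1 (mast cell chymase) was lower in Piezo1_KO (log2 fold change −2.03 ± 0.35, adjusted p = 0.0312, edgeR). It passed in 6 of 12 alternative fits and not with the replicate block or without any 1 Piezo1_KO library, WT replicate 1 or WT replicate 3 (adjusted p up to 0.149). Tpsab1 had 0 counts in all 3 Piezo1_KO libraries and 6, 12 and 6 in WT replicates 1, 2 and 3. These levels moved with Cxcl3, and their part in its change was not tested.

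Of 11 neutrophil markers 3 were in the table, with summed levels of 0.484 to 0.676 CPM in Piezo1_KO and 0.755 to 0.956 CPM in WT. These were Ly6g, Mmp8 and Mmp9, with at most 22 counts in a library, and 0 were tested. The mean of Ly6g was higher in Piezo1_KO (0.194 ± 0.0953 CPM) than in WT (0.124 ± 0.126 CPM, SD, n = 3 each). Those of Mmp8 and Mmp9 were lower. Of 16 macrophage and dendritic cell markers 12 were in the table, at 39.8 to 48.9 CPM in Piezo1_KO and 45.4 to 51.3 CPM in WT, of which Xcr1 gave 32.6 to 36.0 CPM in Piezo1_KO and 29.5 to 34.7 CPM in WT. The other 11 summed to 7.19 to 13.7 CPM in Piezo1_KO and 10.7 to 21.8 CPM in WT. None of the 6 tested passed by edgeR, DESeq2 or limma-voom, and 2 had an unadjusted p under 0.05, beside 13.2% of all tested genes. Csf1r, the receptor that macrophages need for growth, had the smallest p, at 0, 0.380 and 0.128 CPM in Piezo1_KO replicates 1, 2 and 3, against 1.06, 1.05 and 1.12 CPM in WT replicates 1, 2 and 3. Its groups did not overlap (log2 fold change −2.56 ± 0.81, adjusted p = 0.209, edgeR). Lyz2 (lysozyme) was at 0.342 to 1.35 CPM in Piezo1_KO and 1.06 to 6.75 CPM in WT, with overlap, while Cd68, a lysosomal protein, was at 3.09 to 4.18 CPM in Piezo1_KO and 1.91 to 2.84 CPM in WT, without overlap in the other direction. The part of macrophages in the chemokine values was not tested.

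Markers of T and NK cells (8 of 15 in the table) summed to 62.9 to 73.8 CPM in Piezo1_KO and 46.8 to 51.9 CPM in WT. Lck, a kinase of antigen receptor signalling, was higher in Piezo1_KO (log2 fold change 1.51 ± 0.15, adjusted p = 0.00384, edgeR), and without it the sum was 27.6 to 33.4 CPM in Piezo1_KO and 31.4 to 39.7 CPM in WT. Cd3e, a T cell receptor subunit, was at 0.930 to 1.62 CPM in Piezo1_KO and 2.36 to 3.14 CPM in WT. It was lower without overlap (adjusted p = 0.143, edgeR). Cd3g was at 17.8 to 23.9 CPM in Piezo1_KO and 23.4 to 31.7 CPM in WT, with overlap (adjusted p = 0.474, edgeR). Cd3d and Nkg7 went the other way, without overlap. Cd3d, not tested, was at 0.427 to 0.691 CPM in Piezo1_KO and 0.1499 to 0.239 CPM in WT. Nkg7 was at 2.09 to 3.38 CPM in Piezo1_KO and 0.956 to 1.499 CPM in WT (adjusted p = 0.233, edgeR). Tbx21, the type 1 regulator T-bet, was lower, with 0 counts in all 3 Piezo1_KO libraries and 21, 44 and 20 in WT replicates 1, 2 and 3 (adjusted p = 0.0170, edgeR, 7 of 12 alternatives passed).

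The 3 of 6 B cell markers in the table summed to 80.2 to 104 CPM in Piezo1_KO and 34.4 to 40.3 CPM in WT. Ighm, the immunoglobulin mu heavy chain, was higher in Piezo1_KO (1.79 ± 0.19, adjusted p = 0.00473, edgeR), and the other 2 summed to 22.3 to 26.5 CPM in Piezo1_KO and 16.6 to 18.8 CPM in WT. The 4 of 10 epithelial and stromal markers in the table summed to 83.4 to 85.4 CPM in Piezo1_KO and 51.7 to 60.7 CPM in WT. Pecam1, an adhesion molecule of endothelium and leukocytes, was higher in Piezo1_KO (0.65 ± 0.10, adjusted p = 0.0193, edgeR, 7 of 12 alternatives passed), and the other 3 summed to 13.9 to 18.7 CPM in Piezo1_KO and 10.9 to 16.0 CPM in WT, with overlap. Cdh1 (E-cadherin) was at 0 to 0.214 CPM in Piezo1_KO and 0.7495 to 1.02 CPM in WT (adjusted p = 0.151, edgeR). Epcam went the other way, at 13.8 to 18.3 CPM in Piezo1_KO and 10.2 to 15.3 CPM in WT, with overlap (adjusted p = 0.485, edgeR). Col1a1, not tested, averaged 0.214 ± 0.113 CPM in Piezo1_KO and 0.0697 ± 0.121 CPM in WT (SD, n = 3 each), with overlap as well. The part of these other cells in the chemokine values was not tested.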

How the data were processed

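RNA of cultured lung ILC2s (10 ng per library) was sequenced. The authors deposited estimated counts per gene, unscaled, with libraries as rows. Per the submitters' processing notes, reads were placed on mm10. Aligner, counter, annotation and library strand were not given in the sources read here, and overlapping or antisense genes may share reads. Libraries were matched by the description in the labels, and groups and replicate numbers come from the titles.

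Estimated counts were rounded, filtered by filterByExpr (14149 genes kept), and scaled by TMM. The two-sided test was glmQLFTest after glmQLFit (edgeR 4.0.16 under R 4.3.3), with a Benjamini-Hochberg threshold of 0.05. SE is the absolute log2 fold change over the square root of F. Alternatives were RLE factors, no filter, a stricter filter (1 CPM or more in every library of either group), a replicate block, DESeq2 1.42.0, limma-voom (limma 3.58.1) and leaving out each library. The fit was also run on counts simulated with its own dispersions and library sizes, which cannot check those settings. Replicate pairs differed beyond sampling noise (chi-square per gene 10.9 to 59.8). Intervals for summed counts are exact 95% binomial ones. They cover counting error only.

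The chemokines and gene lists were chosen with earlier results of these data known. Named genes are the 8 chemokines, their receptors, called genes of each list or else the smallest p, and the 3 genes of nearest pattern averaging 3 log2 CPM or more (prior count 2), leaving out predicted genes. Relb, Fos, Nfkbid, Junb, Cxcl5, Il5, Il2ra, Tpsab1, Tpsb2, Kit, Ly6g, Mmp8 and Mmp9 were named after their values were seen. So were Xcr1, Lyz2, Cd68, Cd3d, Cd3e, Cd3g, Nkg7, Cdh1, Epcam and Col1a1. 1 listed receptor is not reported here.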

Additional observations from a re-analysis of the deposited data

How the results depend on the processing

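Cxcl3 kept its direction and passed in all 12 alternatives. Cxcl2 kept its direction, and passed in limma-voom (−1.66, adjusted p = 0.0388), where 2 members were called. The number of all genes called was 214, against 593 in DESeq2, 439 in limma-voom, 52 with the replicate block and 33 to 297 with a library left out. Called receptors numbered 0, against 1 each with the 1 CPM filter, in DESeq2 and in limma-voom and 0 to 1 with a library left out. Called transcription regulators numbered 1, against 2 with the 1 CPM filter (Nfkbiz and Relb), 4 in DESeq2 (also Fos and Nfkbid), 3 in limma-voom (Nfkbiz, Relb and Fos), 0 with the replicate block and 0 to 1 with a library left out. Leaving out libraries moved the Ccl22 log2 fold change from −2.36 to 0.33 and the log2 Cxcl3/Cxcl2 ratio difference from −0.10 to 0.42; the cause was not tested, and Ccl22 had no value with the 1 CPM filter. Ratios of Ccl3 to Ccl4 and Ccl17 to Ccl22 could not be computed without added counts, since libraries had 0 counts.

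The labels do not say that replicate numbers pair the libraries, and same-numbered libraries had deviations correlated at −0.0227, −0.183 and −0.00752 over genes. With the replicate block Cxcl3 was at −1.33 (adjusted p = 0.00918) and Cxcl2 at −1.50 (adjusted p = 0.361); of the members and lists, it changed the calls of Nfkbiz and of marker genes. Ccl3, Ccl4, Ccl17 and Ccl22 had at most 21 counts in any library, and whether deeper sequencing would separate the groups was not tested.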
